A study of Rattus norvegicus with 4 samples.

Results

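Creld2, Trib3, Pdia4, Pdia3 and Calr are 5 of the 958 genes that could be named on a spotted cDNA array of rat liver RNA. They were chosen by symbol: every probe whose platform annotation gave a single gene, updated through its Entrez identifier, was kept where that gene was among the 5. Each was represented by 1 probe, so 5 of the 1432 named probes and of the 1936 probes in all are described. In the ANIT pool Creld2 was 2.73-fold higher than in the olive oil pool, Trib3 and Pdia4 were each 1.30-fold higher with arrays or dyes that disagreed, and Pdia3 and Calr lay at the centre of the array. The Entrez identifiers were 362978 for Creld2, 246273 for Trib3, 116598 for Pdia4, 29468 for Pdia3 and 64202 for Calr.

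The endoplasmic reticulum (ER) is where secreted and membrane proteins fold, and the liver cell, which exports most plasma proteins, is rich in it. When unfolded proteins accumulate there, the sensors IRE1, PERK and ATF6 start the unfolded protein response. ATF6 and the IRE1 product XBP1 act on ER stress response elements in the promoters of folding genes, while PERK raises the transcription factor ATF4, whose targets include genes of amino acid supply. Of the genes described here, Creld2 encodes a secreted ER stress-inducible protein and Trib3 a pseudokinase induced through ATF4 and CHOP, and these are called stress-inducible below. Calr encodes calreticulin, a calcium-binding chaperone of glycoproteins, and Pdia3 encodes ERp57, the disulfide isomerase that works with calreticulin, and these are called resident. Pdia4 encodes ERp72, a disulfide isomerase that resides in the ER and is also raised by ER stress, and it was kept apart from both classes. The class names are labels and do not mean that the resident genes are unresponsive to ER stress.

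The animals were male Sprague-Dawley rats of 250 to 300 g. The treated rats received a single intraperitoneal dose of 75 mg/kg alpha-naphthylisothiocyanate (ANIT), a toxicant that injures bile duct cells, and the controls received its vehicle, olive oil. Livers were taken 18 h later, RNA of 3 rats per treatment was pooled, and both pools were hybridised together to each of 4 arrays. ANIT was labelled with Cy5 on arrays 1 and 3 and with Cy3 on arrays 2 and 4. All 4 arrays thus carried the same RNA, which is 1 replicate of the treatment and permits no test of it. The table holds ratios and no levels, so neither the abundance of the genes nor the identity of the tissue could be checked against its markers, and fewer cells of a type cannot be told apart from less RNA per cell. Ratios are given as ANIT over olive oil. That direction is likely but not certain, because the sample titles name ANIT and ANIT is listed as the second channel on every array. The largest values of the table kept their sign under both dye orientations. A ratio between the pools would do so in either direction, so this speaks to a pool ratio rather than a dye ratio and leaves the direction undecided. The opposite direction would turn the sign of every ratio and difference below. Neither the direction nor the log base, taken as 2, is given in the sources used here.

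The dyes set much of the single-array values. Arrays of 1 orientation correlated at 0.958 to 0.979 over all probes, and arrays of opposite orientation at -0.38 to -0.37. Each array was centred on its median (-0.53, 0.85, -0.53 and 0.83 as deposited for arrays 1 to 4), which lowered every mean ratio by 0.15, and a gene's ratio is the mean of both dye orientations. Errors are the SD between arrays of 1 orientation, pooled over both (n = 4 arrays), and describe hybridisation only.

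Promoter sequences from RefSeq (rat assembly GRCr8) are shown because members with different ratios share the same promoter element. The table held windows of 300 bases, from 250 before to 50 after the transcription start, for 4 of the 5 members; Pdia3 had no entry. The classical ER stress response element is CCAAT, then any 9 bases, then CCACG, read on either strand. It was present in 22 of 33469 promoters (0.0657%), among them those of Creld2 and Calr, in both cases on the strand opposite to the gene. In Pdia4 the nearest match differed by C1A, counted from the 5′ end of the element as printed in gene direction, and 1.41% of all promoters held a match with at most 1 such difference. In Trib3 the capitals mark instead the nearest matches to the element bound by ATF4 with C/EBP factors, TGATG, then any base, then AAT. The match farther from the start differed by A3G, and the nearer, on the opposite strand, by A1T. Such a match was common, since 18.6% of promoters held at least 1, against 1.09% with all letters in place. Allowing 1 difference was decided after the sequences had been seen. The stretches below run 5′ to 3′ along the gene's strand, with the letters of the element in capitals.
Creld2, chr7:121789219-121789277, + strand: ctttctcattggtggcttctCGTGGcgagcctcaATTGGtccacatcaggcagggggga
Calr, chr19:40213117-40213173, + strand: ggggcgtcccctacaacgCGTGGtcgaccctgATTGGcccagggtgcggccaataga
Pdia4, chr4:78153254-78153312, - strand: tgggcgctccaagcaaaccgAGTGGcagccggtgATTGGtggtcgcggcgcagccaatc
Trib3, chr3:161275534-161275621, - strand: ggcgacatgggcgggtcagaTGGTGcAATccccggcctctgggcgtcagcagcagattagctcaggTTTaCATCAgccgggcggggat

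The element lay 145 to 127 bases before the start in Creld2, 232 to 214 before it in Calr and, with its difference, 101 to 83 before it in Pdia4. A second form, ATTGG, then any base, then CCACG, overlapped the first in Creld2 and Calr with 1 difference each (G11A and C10G), and 0.995% of promoters held it with at most 1 difference. The element TGACGTGG, which XBP1 binds, had no exact match in the 4 windows, and 0.595% of all promoters held one. Creld2 had a match with 1 difference (G5A) 125 to 118 bases before the start, as did 15.3% of promoters anywhere in the window. A match is a description of letters, and binding was not measured.

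Creld2 stood apart from the other members. As deposited, its log2 ratio was 1.33, 2.12, 0.99 and 1.96 on arrays 1 to 4, above 0 whichever dye carried the ANIT pool. After centring the values were 1.87, 1.27, 1.52 and 1.14, all above the value of 1 that marks 2-fold. Their mean was 1.45 ± 0.19, or 2.73-fold higher in the ANIT pool, and placed Creld2 6th of 958 genes; with the direction turned it would be 0.366-fold and 953rd. Of the 5 members it was the one that passed 2-fold with the same sign on all arrays, a rule met by 12 genes upward (1.25% of those measured), 11 downward (1.15%) and 23 in all (2.40%). With ANIT in Cy5 alone the mean was 1.69 and with ANIT in Cy3 alone 1.21, so that each dye orientation lay past 2-fold on its own.

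Trib3 was above 0 by far less. Its deposited values, -0.23, 1.26, -0.47 and 1.54, changed sign with the dye. Centred, they were 0.30, 0.42, 0.06 and 0.72, above 0 on every array, a pattern shown by 9.08% of genes. The mean was 0.37 ± 0.19 (1.30-fold), and array 3 lay close to 0. Trib3 differed between dye orientations by -1.75 (ANIT in Cy5 minus ANIT in Cy3, as deposited), the most negative difference of the members, against a median of -1.24 over all genes. Ratios spread less where this difference was strongly negative: the SD of the ratios was 0.092 over the 240 genes below -1.96, 0.22 over the 239 genes from -1.96 to -1.24, 0.39 over the next 239 and 0.51 over the last 240. The median ratio rose over the same ranges, from -0.098 through -0.042 and 0.040 to 0.099. Trib3 ranked 11th of the 239 genes of its range and 76th of all genes, or 229th and 883rd (0.772-fold) with the direction turned.

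Pdia4 had almost the same mean ratio as Trib3 but a different pattern over the same arrays. Its deposited values of 0.41, 1.00, 0.077 and 0.65 were all above 0, which held for 18.9% of genes. Centred, they were 0.94, 0.16, 0.61 and -0.18, so that array 4 lay below 0 and array 1 close to 2-fold. The mean was 0.38 ± 0.24 (1.30-fold), and Pdia4 ranked 72nd of 958, or 887th (0.767-fold) with the direction turned. With ANIT in Cy3 alone the mean was -0.010, against 0.78 with ANIT in Cy5 alone.

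Both resident genes lay at the centre of the array. Pdia3 had deposited values of -0.092, 0.30, 0.18 and 0.25 and centred values of 0.44, -0.55, 0.71 and -0.58. Calr had deposited values of 0.033, 0.40, -0.32 and 0.42 and centred values of 0.56, -0.44, 0.21 and -0.40. For both, the centred values were above 0 with ANIT in Cy5 and below 0 with ANIT in Cy3, since their dye differences (-0.23 and -0.56) were less negative than the median. The means over both orientations were 0.0065 ± 0.14 for Pdia3 and -0.018 ± 0.18 for Calr, ranks 382 and 428 of 958. Their sign depended on where 0 was set. Without centring the means were 0.16 and 0.13, and limma then called Pdia3 (adjusted p = 0.037) and not Calr (0.103), while with Hprt1 and Actb as the centre they were -0.057 and -0.081. Of the housekeeping spots, Hprt1 had 0.086 and Actb 0.040.

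**Figure D1:**
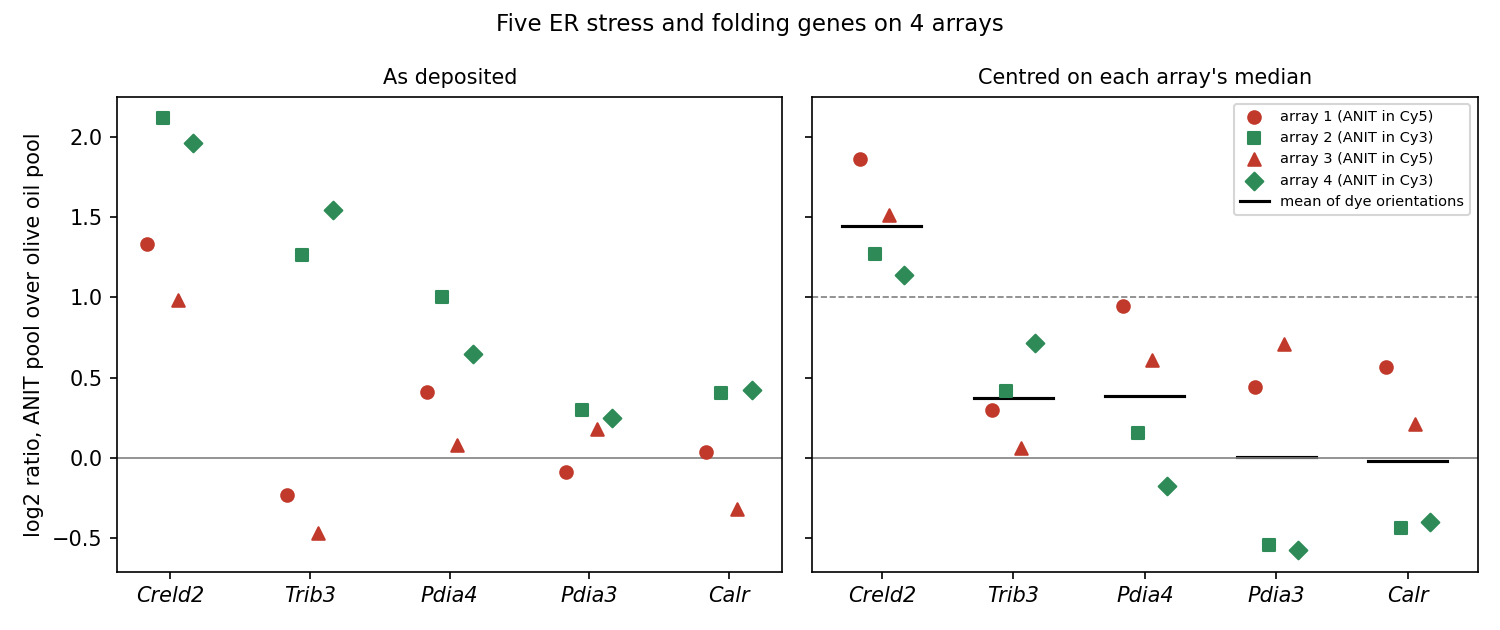
Log2 ratio of the ANIT pool over the olive oil pool (vertical axis) for the 5 members on each of 4 arrays, as deposited on the left and centred on the array's median on the right; colour gives the dye of the ANIT pool, black bars the mean of both dye orientations and the dashed line 2-fold. The 4 centred values of Creld2 lie between 1.14 and 1.87, above 2-fold, while Pdia3 and Calr fall on opposite sides of 0 with the dye.

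All 5 probes were noisier than most. Their SD within a dye orientation ran from 0.14 to 0.24, against a median of 0.068 over genes, and was larger than that of 85.9% (Pdia3) to 97.3% (Pdia4) of genes. Between arrays 1 and 3, which share an orientation, Creld2, Trib3, Pdia4 and Calr were lower on array 3, and Pdia3 was higher there (0.71 against 0.44). Each member rests on 1 probe, whereas 340 of the 958 genes average more than 1.

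**Figure D2:**
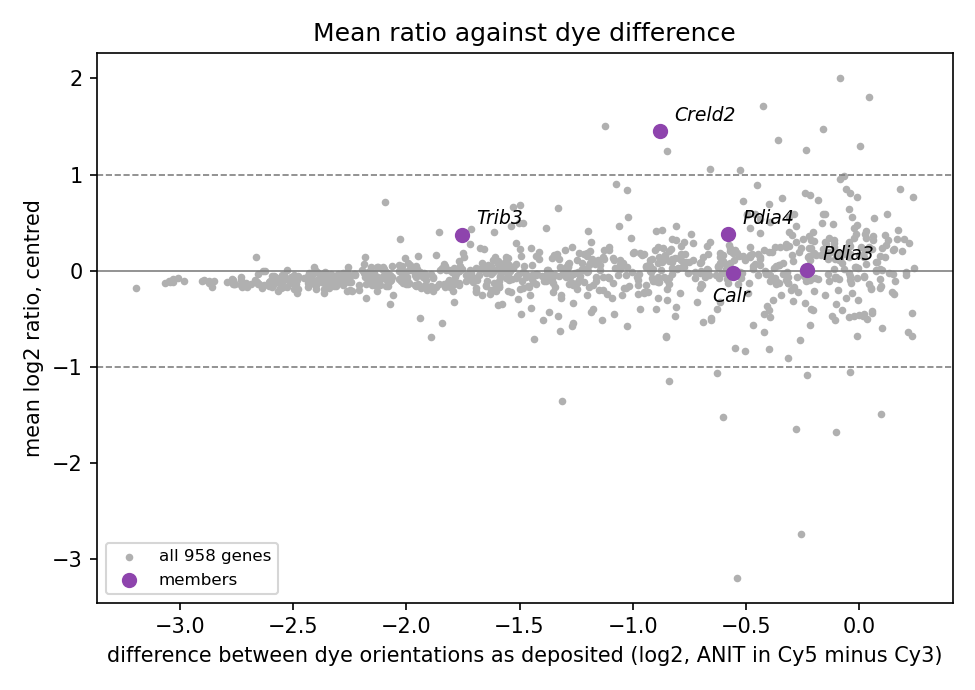
Mean centred log2 ratio (vertical axis) against the difference between dye orientations in the deposited values (horizontal axis, log2) for 958 genes in grey and the 5 members in purple; dashed lines mark 2-fold. The spread of ratios narrows to the left, where Trib3 lies at -1.75, and Creld2 lies at 1.45 among genes of wider spread.

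The classes were then compared within each array, which removes any offset of the array as a whole. Creld2 exceeded the mean of Pdia3 and Calr by 1.36, 1.77, 1.06 and 1.63 on arrays 1 to 4, with a mean of 1.45 ± 0.17. Creld2 also exceeded Pdia4 on all 4 arrays, by 1.07 ± 0.099 on average. Trib3 lay below the resident mean on the arrays with ANIT in Cy5 (-0.21 and -0.40) and above it on those with ANIT in Cy3 (0.91 and 1.21). Its mean difference of 0.38 ± 0.18 is thus an average of opposite signs, 1 for each dye orientation. Pdia4 lay above the resident mean on every array (0.44, 0.65, 0.15 and 0.31), with a mean of 0.39 ± 0.22.

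Taken as classes, the mean of Creld2 and Trib3 exceeded that of Pdia3 and Calr by 0.58, 1.34, 0.33 and 1.42 on arrays 1 to 4, or 0.92 ± 0.13 (1.89-fold). The members of the stress-inducible class were not alike, since Creld2 exceeded Trib3 by 1.08 ± 0.23. The resident genes differed from each other by 0.025 ± 0.32 (Pdia3 minus Calr), with Pdia3 lower on arrays 1, 2 and 4 and higher by 0.50 on array 3. Pdia4 exceeded Pdia3 on 3 arrays but not on array 3 (-0.10), and exceeded Calr on all 4. Read instead as a Cy5 over Cy3 ratio, with the sign turned where ANIT was in Cy3, the table gave -0.46 for the difference between classes and 0.24, -0.19, 0.39, 0.57 and 0.40 for Creld2, Trib3, Pdia4, Pdia3 and Calr. Under that reading 0 of 958 genes passed 2-fold.

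**Figure D3:**
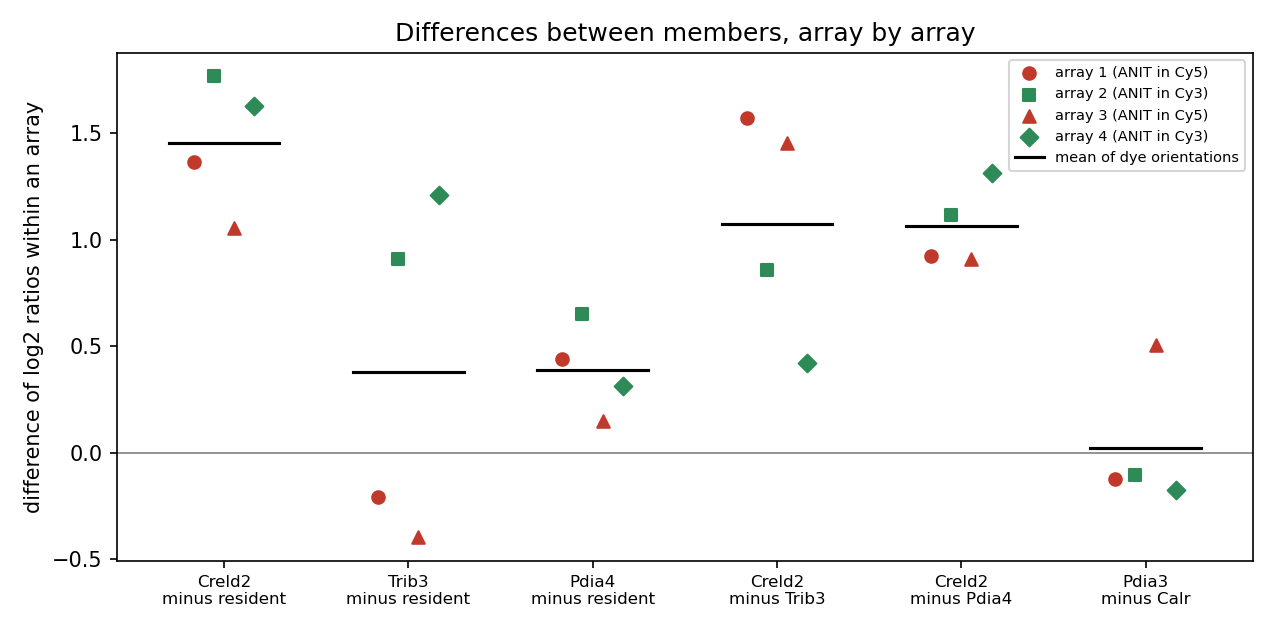
Differences of centred log2 ratios between members within an array (vertical axis) for 6 of the 10 differences, with colour for the dye of the ANIT pool and black bars for the mean of both dye orientations; "resident" is the mean of Pdia3 and Calr. All 4 points of Creld2 minus resident lie above 1, while those of Trib3 minus resident split by dye on either side of 0.

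Against hybridisation error alone, limma called Creld2 (adjusted p = 1.1e-05), Trib3 (0.00377) and Pdia4 (0.00663) as higher in the ANIT pool and called neither Pdia3 (0.918) nor Calr (0.809), with Benjamini-Hochberg adjustment over 958 genes. This test compares the 2 pools and not the treatments. It called 54.4% of all genes, 25.2% as higher and 29.2% as lower. The 3 of 5 members called were all higher and stand beside that 25.2%, but 5 genes are too few to compare shares. Without a term for dye orientation the adjusted p was 0.0432 for Creld2, close to the limit of 0.05, 0.567 for Trib3 and 0.895 for Pdia4.

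Around these members, a list of 40 ER folding enzymes and chaperones had 5 measured genes, of which 4 were the members Creld2, Pdia4, Pdia3 and Calr. The remaining gene, P4hb, the founding protein disulfide isomerase, had 0.22 ± 0.037, above 0 with ANIT in Cy5 (0.99 and 0.96) and below 0 with ANIT in Cy3 (-0.57 and -0.51). Whether the spotted cDNAs tell the related transcripts of Pdia3, Pdia4 and P4hb apart was not tested. Hspa5, Hsp90b1, Pdia6 and Canx were not among the named probes. The median of the 5 was 0.22, against -0.040 over all genes.

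The stress sensors and transcription factors were represented by 4 of 24 listed genes, and 0 of them reached 2-fold. Xbp1, which encodes the transcription factor spliced by IRE1, had centred values of 0.73, -0.31, 0.64 and -0.28 and a mean of 0.20 ± 0.051. Ddit3, which encodes CHOP, had 0.18 ± 0.11, the kinase gene Eif2ak1 had 0.18 ± 0.017, and Eif2s1, the translation factor that PERK phosphorylates, had 0.13 ± 0.054. By limma 4 of 4 were called higher, against 25.2% of all genes. With arrays centred on Hprt1 and Actb 2 of 4 were, against 166 of 958 genes. Each of the 4 had the sign of its mean on 2 of the 4 arrays, those of 1 dye orientation. Xbp1, Ddit3 and Eif2ak1 were above 0 with ANIT in Cy5 and below 0 with ANIT in Cy3. Eif2s1 split the other way, with means of -0.19 and 0.45. With ANIT in Cy3 only the list median was -0.38. The genes of the sensors IRE1, PERK and ATF6 were not among the named probes, and neither were Atf4 and Atf3. Splicing of Xbp1 cannot be read from such a spot.

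Trib3 belonged to 8 measured genes of the 41 listed as targets of the PERK and ATF4 branch. Asns, the asparagine synthetase, had 0.36, 0.72, 0.15 and 0.48 on arrays 1 to 4 and a mean of 0.43 ± 0.16, above 0 on every array like Trib3. Slc38a2, an amino acid transporter, had 0.41 ± 0.040, also above 0 on every array. The serine synthesis gene Phgdh had 0.14 ± 0.028 and the growth arrest gene Gadd45a 0.13 ± 0.041. Of the 8 genes 5 were called higher by limma and 0 lower, against 25.2% and 29.2% of all genes, and the median was 0.13. Slc7a1, Vegfa and Slc7a5 were not called. With centring on Hprt1 and Actb, 3 of the 8 were called higher, against 166 of all 958 genes.

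Genes of ER-associated degradation, translocation and ER exit had 6 measured members of 74 listed, with ratios from 0.16 to 0.30 and a median of 0.26. All 6 were called higher by limma, against 25.2% of all genes. With Hprt1 and Actb as the centre 4 of 6 were, against 166 of 958 genes. The median dye difference of the list was -0.26, within the range of genes whose median ratio was 0.099. Centred on a running median over probes of like dye difference, 4 of 6 were called higher, against 205 of 958 genes. Each of the 6 was above 0 on the arrays with ANIT in Cy5 and below 0 on those with ANIT in Cy3, where the list median was -0.32. Ssr4, a subunit of the translocon-associated complex, had 0.30 ± 0.019, the vesicle coat GTPase gene Sar1b 0.29 ± 0.14, and the GTPase genes Arf4 and Arf1 0.28 ± 0.058 and 0.24 ± 0.046. Of the degradation genes listed, Dnajb9 alone was measured, and it was the lowest of the 6 at 0.16 ± 0.014. Chaperones outside the ER had 14 measured genes of 47, with a median of 0.16. Of these, 7 were called higher and 0 lower, against 25.2% and 29.2% of all genes. Dnaja2 was highest at 0.59 ± 0.13, followed by the chaperonin subunit Cct5 at 0.41 ± 0.16, the mitochondrial chaperone Hspa9 at 0.32 ± 0.064 and the co-chaperone Stip1 at 0.26 ± 0.025. Their means with ANIT in Cy5 alone were 1.20, 0.81, 0.60 and 0.79, in the same order. With ANIT in Cy3 alone they were -0.012, 0.018, 0.041 and -0.27. In these lists 0 genes other than Creld2 reached 2-fold in either direction. With centring on Hprt1 and Actb 6 of the 14 chaperones outside the ER were called higher and 3 lower, against 166 and 430 of all 958 genes.

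**Figure D4:**
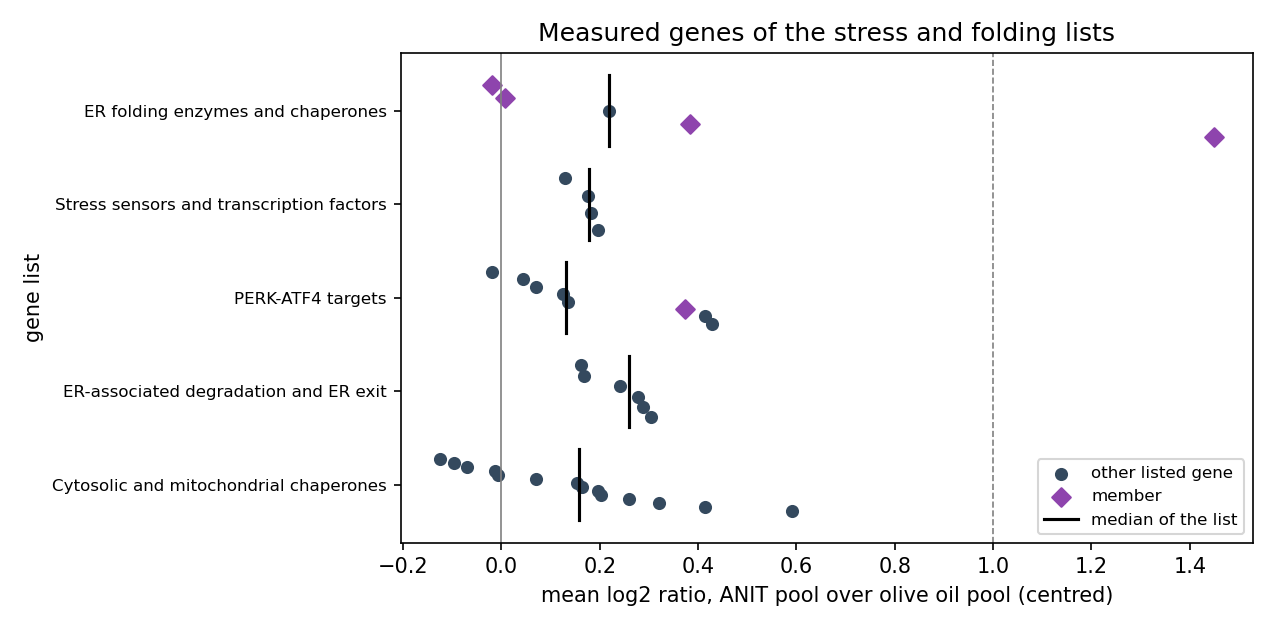
Mean centred log2 ratio (horizontal axis) of each measured gene in 5 gene lists (vertical axis), with members as purple diamonds, other genes as dark points, black bars for the list medians and a dashed line at 2-fold. List medians lie between 0.13 and 0.26, and Creld2 at 1.45 is the single gene beyond 2-fold.

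The promoter element can be set beside the ratios. Of 780 measured genes with a promoter in the table, 3 held the exact ER stress response element: Creld2 (1.45), Xbp1 (0.20) and Calr (-0.018). The same letters thus stood before the gene with the largest ratio of the members and before the gene with the lowest. With at most 1 difference there were 15 genes, among them Pdia4 and Ddit3, with a median of 0.078, and 1 of the 15, Creld2, passed 2-fold, against 10 higher and 8 lower among all 780.

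By the root mean square difference of the 4 centred values, the genes most like Creld2 were Alpl, the tissue-nonspecific alkaline phosphatase (0.14), Ifrd1 (0.22) and Nr0b2, the nuclear receptor SHP (0.28). Those nearest to Trib3 were Mt3 (0.13), Ptpn21 (0.15) and Pgs1 (0.17), and those nearest to Pdia4 were Mx2 (0.15), Mbd2 (0.15) and Cct5 (0.16). Pdia3 lay nearest to Scd2 (0.050), Cyp3a23-3a1 (0.080) and Gnas (0.10), and Calr to Grina (0.091), P2rx4 (0.11) and Dpp4 (0.11). The difference between dye orientations enters this measure along with the ratio.

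Of the marker lists of liver cell types, 0 genes reached 2-fold. Of 6 hepatocyte markers 4 were measured (Ttr, Apoa1, Tf and Serpina1), with ratios from -0.68 to -0.13. Limma called all 4 lower, against 29.2% of all genes. Their signs were not the same on all arrays. Ttr and Tf were above 0 with ANIT in Cy5 (means 0.43 and 0.33) and below 0 with ANIT in Cy3 (-0.84 and -0.73). Serpina1 split the other way (-0.33 and 0.069), and Apoa1 was below 0 on 3 arrays. The ranges were -0.12 to 0.34 for 2 of 7 cholangiocyte markers, -0.10 to 0.33 for 3 of 9 neutrophil and inflammation markers, -0.58 to 0.44 for 5 of 9 stellate cell markers and -0.25 to -0.038 for 2 of 6 endothelial markers. Of the plasma cell list, cells rich in ER, Xbp1 alone was measured, and of the macrophage and lymphocyte lists 0 genes were. The part of these markers in the ratios of the members was not tested.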

How the data were processed

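The deposited values are log ratios of the 2 channels, taken as log2. How they were background-corrected and normalized is not given in the sources used here. Per the labels' protocols, poly(A) RNA of both pools was labelled by reverse transcription and hybridised to a glass array of 1800 rat genes. All 4 columns, without missing values, were used. Of 1936 probes, 1432 had 1 symbol in the platform annotation, 19 several and 485 none listed; 1429 were updated through RefSeq (GRCr8).

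Arrays were centred on their medians over all probes, probes averaged per gene, and arrays averaged within and then over dye orientations. A gene was counted at a mean log2 size of at least 1 with the sign of the mean on every array. The same values were fitted with limma 3.58.1 (R 4.3.3), including a dye term, at an adjusted p under 0.05. Python 3.11.15 with numpy 2.4.6 and pandas 2.3.3 did the rest. The number of arrays limits the precision of the ratio between these pools, and 1 replicate of the treatment permits no test of the treatment.

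Members, lists, tests and the reading of the table were chosen with earlier results of these data known. Named genes were the members, up to 4 further genes per list by size, set ER stress genes, the 3 genes nearest each member and the housekeeping genes. Slc7a1, Vegfa, Slc7a5 and Dnajb9 were added after their values were seen. Alternatives were other centring, the Cy5 over Cy3 reading, subsets of arrays, other sizes, probe choices and models. A running median over 201 probes of like dye difference was added after the data were seen.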

Additional observations from a re-analysis of the deposited data

Results flagged for a closer look

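Of 79 sets of 4 array values examined (69 genes and 10 differences between members), 2 had an array far from the rest, where chance marks about 1 in 20 sets of 4 like values. The difference Pdia3 minus Calr was 0.50 (0.504) on array 3 and between -0.17 and -0.11 on the other arrays, so that the order of the resident genes on that array opposed the other 3. Gadd45a had 0.064 on array 2, against 0.14 to 0.15 on the others. Because the arrays form dye pairs, that rate does not carry over exactly.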

How the results depend on the processing

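Both pools were hybridised to every array, so each value is already a ratio within an array. Because all 4 arrays carry 1 pair of RNA pools, there were no replicates of the treatment to pair. The value of Creld2 stayed above 0 in all 14 alternatives (0.24 to 1.69), and limma called it in the 13 fitted. The lowest value, 0.24, came from the Cy5 over Cy3 reading. There it averages opposite signs of the dye orientations, so the agreement of the 4 arrays does not hold under that reading. Read as Cy5 over Cy3, Trib3 turned to -0.19, Calr to 0.40 and the class difference to -0.46, Pdia3 had 0.57 (all 3 genes called by limma), and 0 genes were 2-fold higher, 0 lower and 0 members counted, with limma calling 450 genes higher. With ANIT in Cy5 only, Pdia3 had 0.58 and Calr 0.39 (both called), and the class difference was 0.45, with 59 genes 2-fold higher, 7 lower and 419 higher by limma. With ANIT in Cy3 only, Pdia4 had -0.010, Pdia3 -0.56 and Calr -0.42 (Pdia3 and Calr called), and the class difference was 1.38, with 6 genes higher and 36 lower. Without centring, Pdia3 had 0.16 (called) and Calr 0.13 (not called), 7 genes were 2-fold lower, and limma called 475 higher and 81 lower. On Hprt1 and Actb, Pdia3 had -0.057 and 430 genes were lower by limma. On the running median, Pdia3 had -0.10.

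Limma without the dye term kept the ratios of Trib3 (0.37) and Pdia4 (0.38) but called neither, and called 2 genes higher and 3 lower. Creld2 was still called there, with an adjusted p of 0.0432. With the dye term and an adjusted p under 0.01, limma called 149 lower. At 1.5-fold, 34 genes were higher and 21 lower; at 3-fold, 3 and 4, with 0 members; with natural logs 27 were higher. With Pdia4 among the stress-inducible genes the class difference was 0.74.

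The list medians of ER folding, sensor, PERK-ATF4, degradation and exit, and other chaperone genes (0.22, 0.18, 0.13, 0.26 and 0.16) moved by over the arrays' SD as follows. Without centring the last 4 were 0.33, 0.28, 0.41 and 0.31, and on Hprt1 and Actb sensors had 0.12 and degradation and exit 0.20. Read as Cy5 over Cy3, the first 4 had 0.40, 0.56, -0.077 and 0.55. With ANIT in Cy5 only, folding, sensor and degradation genes had 0.78, 0.75 and 0.81, and with ANIT in Cy3 only the 5 lists had -0.42, -0.38, 0.24, -0.32 and 0.024. On the running median folding genes had 0.0050 and degradation and exit genes 0.18. Limma then called higher 2 of 5 folding genes (3 of 5 in the main setting), 4 of 4 sensor and 5 of 8 PERK-ATF4 genes. It also called higher 4 of 6 degradation and exit and 6 of 14 other chaperone genes, against 205 of all 958 genes.

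Leaving out each array in turn gave 1.36 to 1.54 for Creld2, 0.30 to 0.45 for Trib3, 0.30 to 0.47 for Pdia4, -0.061 to 0.074 for Pdia3 and -0.11 to 0.071 for Calr, where Pdia3 turned without array 2 (-0.0014) or 3 (-0.061) and Calr without array 3 (0.071). The class difference then ran from 0.85 to 0.98, with 12 to 13 genes higher, 11 lower and 1 member counted, and limma called 216 to 235 higher and 203 to 270 lower. The 5 medians then ran from 0.20 to 0.23, 0.17 to 0.19, 0.12 to 0.15, 0.23 to 0.28 and 0.14 to 0.16. Spot brightness was not analysed here, so dim spots could not be removed.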
